A study of Mus musculus with 6 samples.

Results

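The FOS, JUN and ATF3 factors are a group of 9 genes, Fos, Fosb, Fosl1, Fosl2, Jun, Junb, Jund, Atf3 and Maff, taken by name. Of these, 8 were measured among the 22180 genes of the arrays. Fosl1 had no probe set that named it alone and is not analysed here. Where a gene had several probe sets, the brightest over all 6 arrays was used.

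RNA came from wildtype mouse cumulus-oocyte complexes (COCs), each an oocyte with its enclosing somatic cumulus cells, which were cultured with 5 µM Torin1, which blocks the ATP site of the kinase MTOR, or with its vehicle DMSO, 3 arrays each. In both groups the females had received 5 IU of equine chorionic gonadotropin for 46 h, groups of 100 COCs were pooled, and the medium contained serum albumin at 3 mg/ml with 5 µM of milrinone, which blocks the oocyte phosphodiesterase PDE3 and keeps the oocyte in meiotic arrest. The labels give the age as 21 days or 23 days and the culture as 14 h or 16 h in different places. They do not say whether the 3 sets per group came from separate mice or days, and p-values here reflect just the scatter of these arrays, possibly a technical one.

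FOS and JUN proteins pair through leucine zippers into the transcription factor AP-1, which binds short palindromic DNA sites. JUN proteins can pair with themselves, whereas FOS proteins need a partner, commonly a JUN protein. Fos, Fosb, Jun and Junb are classic immediate-early genes, which growth factors, cAMP and stress can switch on without new protein synthesis. ATF3 is a related factor that binds sites for cAMP response element proteins and often represses, and MAFF is a small MAF protein that lacks a transactivation domain. In rat granulosa cells the ovulatory gonadotropin signal is known to raise several FOS and JUN family members.

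The reference promoters of Fosb, Jun and Junb, the members that rose, and of Fos, which was not called, are shown for comparison. They are RefSeq windows of build GRCm38.p6, from 250 bases before to 50 bases after the annotated start, 5′ to 3′ on the gene's strand. Capitals mark matches on either strand to TGACG (the core of a cAMP response element, CRE), to TGACATCA or to TATAAA.
Fosb, chr7:19309996-19310295, minus strand: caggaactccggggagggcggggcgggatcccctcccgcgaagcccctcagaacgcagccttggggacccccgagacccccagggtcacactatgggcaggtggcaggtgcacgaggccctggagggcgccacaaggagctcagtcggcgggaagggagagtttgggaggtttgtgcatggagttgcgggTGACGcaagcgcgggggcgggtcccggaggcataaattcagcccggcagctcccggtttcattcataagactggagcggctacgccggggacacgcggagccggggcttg
Jun, chr4:95052173-95052472, minus strand: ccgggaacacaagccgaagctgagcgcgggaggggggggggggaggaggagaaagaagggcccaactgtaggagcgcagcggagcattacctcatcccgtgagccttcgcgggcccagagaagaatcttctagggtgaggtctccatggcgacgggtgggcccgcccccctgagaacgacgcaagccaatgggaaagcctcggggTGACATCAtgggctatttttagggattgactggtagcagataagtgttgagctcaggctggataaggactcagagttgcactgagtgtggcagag
Junb, chr8:84978699-84978998, minus strand: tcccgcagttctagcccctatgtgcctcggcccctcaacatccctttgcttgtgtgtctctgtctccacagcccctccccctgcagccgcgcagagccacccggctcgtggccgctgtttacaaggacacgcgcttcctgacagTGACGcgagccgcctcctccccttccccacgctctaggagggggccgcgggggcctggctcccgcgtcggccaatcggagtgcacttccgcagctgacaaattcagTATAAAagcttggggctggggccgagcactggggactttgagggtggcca
Fos, chr12:85473640-85473939, plus strand: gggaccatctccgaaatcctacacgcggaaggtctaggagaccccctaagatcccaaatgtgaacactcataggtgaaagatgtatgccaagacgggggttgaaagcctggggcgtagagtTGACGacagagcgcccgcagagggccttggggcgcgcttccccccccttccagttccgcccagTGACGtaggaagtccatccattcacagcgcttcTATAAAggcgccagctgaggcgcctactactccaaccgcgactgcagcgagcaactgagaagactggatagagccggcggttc

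The 8 measured members had 10 promoter windows, since Maff has 3 annotated starts. The CRE core TGACG was found in 6 of these 10 windows, at Fos, Fosb, Junb, Atf3 and 2 starts of Maff, and in 20.8% of 32851 mouse promoter windows of the same length. In Fosb it lay at bases -60 to -56 from the start, in Junb at -106 to -102, and in Fos at -129 to -125 and again at -66 to -62. Jun had no such core but held TGACATCA, the AP-1-like element for which its promoter is known, at -45 to -38. That element was in 2 of the 10 windows, at Jun and Maff, and in 3.62% of all windows. The full CRE, TGACGTCA, which contains the core on both strands, was in 1 member window, at Maff, and in 1.79% of all windows. TATAAA was in the windows of Fos, at -33 to -28, and Junb, at 1 to 6 from the annotated start, and in 13.6% of all windows. The EGR site GCGTGGGCG was in 1 member window, again at Maff, and in 0.612% of all windows. The AP-1 site TGANTCA and the CArG box of serum response factor were in 0 member windows, against 7.81% and 1.63% of all windows. Sites more than 250 bases before the start were not searched, so the counts do not show that these genes lack such sites. The core and TGACATCA were added to the search after the sequences had been read. The core therefore occurred both in genes that rose and in Fos, which was not called.

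**Figure D1:**
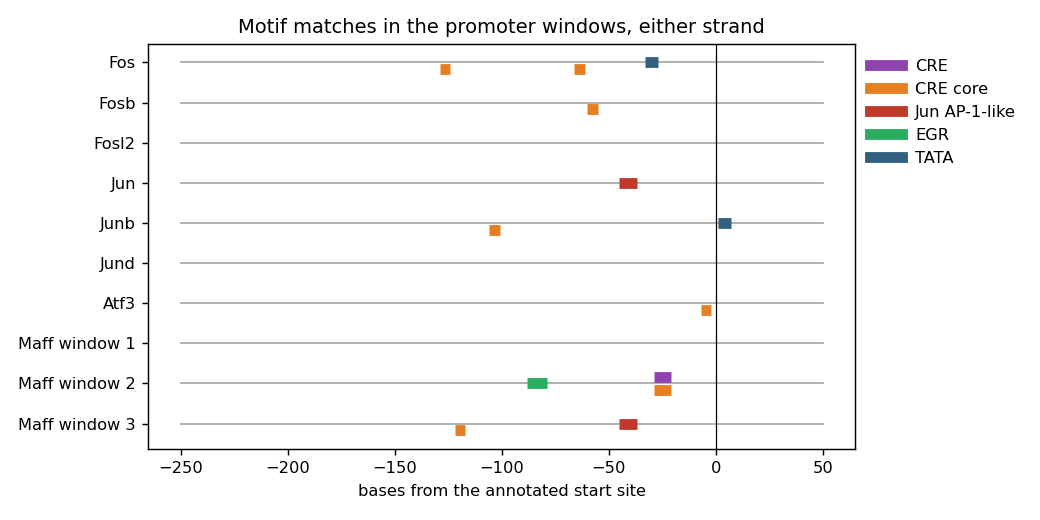
Positions of motif matches in the 10 promoter windows of the 8 measured members, in bases from the annotated start site, on either strand; coloured bars are matches and the grey lines the searched windows. Fosl2, Jund and the first window of Maff hold no match, and the CRE core lies upstream of the start in Fos, Fosb, Junb, Atf3 and Maff.

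On the arrays, Junb, Fosb and Jun rose with Torin1, and the other 5 measured members, Fos, Fosl2, Jund, Atf3 and Maff, were not called. In linear terms the rises were 6.74-fold for Junb, 6.20-fold for Fosb and 4.09-fold for Jun. A call means an adjusted p below 0.05 in limma with Benjamini-Hochberg adjustment over all 22180 genes, on log2(intensity + 1). Thus 3 of 8 members were called higher, against 5.13% of all genes, and 0 were called lower, against 6.94% of all genes; in either direction 12.1% of all genes were called. At an unadjusted p below 0.05 limma gave 4 higher, Jund being the fourth, and 0 lower, against 11.3% of all genes higher and 12.7% lower at that threshold. All 8 changes were above 0, with a median of 0.34, against 0.0098 over all genes, of which 52.8% were above 0. The members were chosen with earlier results of these data known, so these shares only describe them and were not tested as a set.

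**Figure D2:**
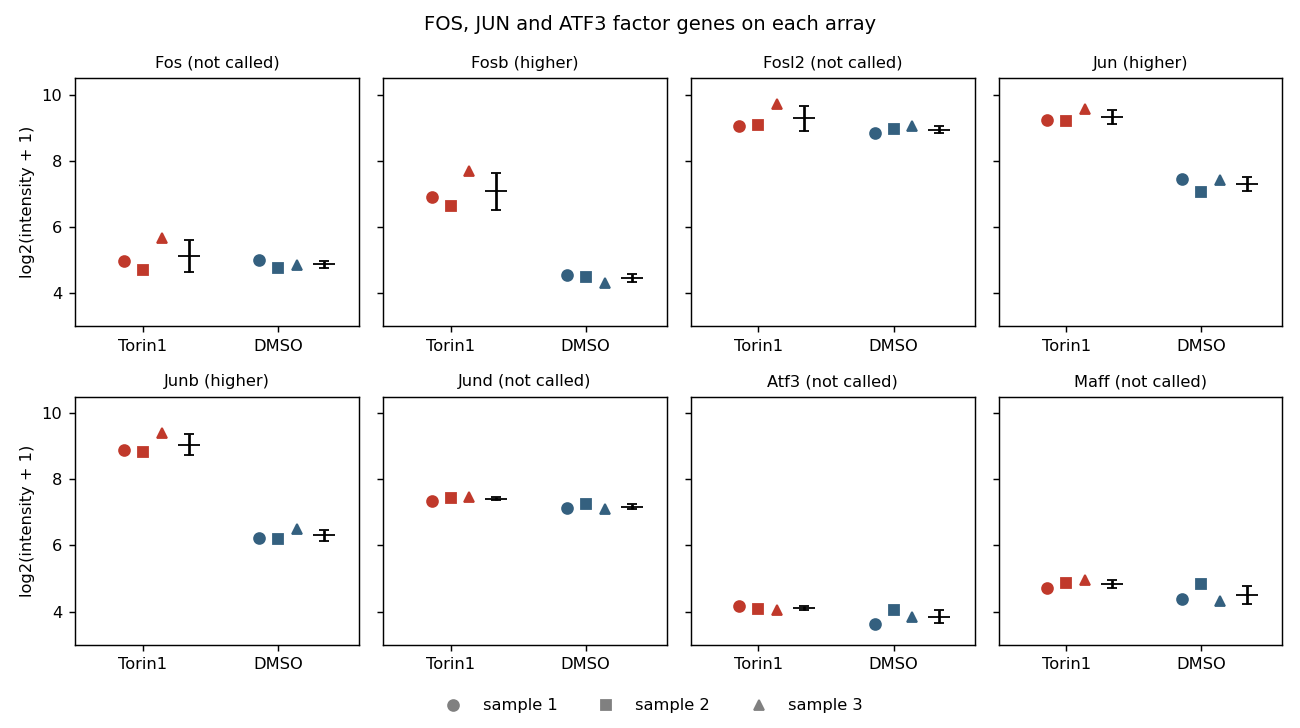
Level of each member on each array, as log2(intensity + 1); symbols are samples 1 to 3, Torin1 in red and DMSO in blue, and the bar to the right of each group is its mean ± SD (n = 3). Fosb, Jun and Junb are well separated, while the Fos and Maff values of the groups overlap.

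Among the FOS family, Fosb stood at 6.90, 6.63 and 7.70 in Torin1 samples 1, 2 and 3, against 4.55, 4.48 and 4.31 in DMSO samples 1, 2 and 3, all as log2(intensity + 1). Every Torin1 array lay above every DMSO array, with Torin1 sample 3 the highest. The means were 7.08 ± 0.56 with Torin1 and 4.45 ± 0.13 with DMSO (SD, n = 3 each), and the log2 change was 2.63 ± 0.26 (SE; limma adjusted p = 0.00119). FosB, the product, is a FOS protein that activates transcription in its full-length form.

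Fos itself stood at 4.97, 4.71 and 5.66 in Torin1 samples 1, 2 and 3, against 4.99, 4.76 and 4.86 in the DMSO samples. Torin1 sample 1 lay among the DMSO values, sample 2 just below them and sample 3 above them, so the groups overlapped. The log2 change was 0.24 ± 0.23 (SE), with a 95% interval from -0.30 to 0.78 and an adjusted p of 0.645 in limma. Without Torin1 sample 3 it was -0.029 (adjusted p = 0.939), so its sign rested on that array. Fos is the prototype of the family, and its mRNA is known to be short-lived.

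Fosl2, whose product FRA2 lacks the strong activation domain of FOS, had 9.07, 9.09 and 9.73 in the Torin1 samples, against 8.85, 8.96 and 9.05 in the DMSO samples. The groups did not overlap, but the lowest Torin1 value lay just above the highest DMSO value, and Torin1 sample 3 stood apart from both. The change was 0.35 ± 0.18 (SE; 95% interval -0.08 to 0.78; limma adjusted p = 0.320), and it was 0.13 without Torin1 sample 3. Complete separation of the groups was seen in 28.6% of all genes.

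Among the JUN family, Junb had 8.90, 8.84 and 9.42 in the Torin1 samples, against 6.23, 6.19 and 6.50 in the DMSO samples. The groups were far apart relative to their spread. The means were 9.06 ± 0.32 with Torin1 and 6.30 ± 0.17 with DMSO (SD, n = 3 each), with a change of 2.75 ± 0.17 (SE; limma adjusted p = 0.000218). JUNB is a weaker activator than JUN on many AP-1 sites and can oppose it.

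Jun had 9.23, 9.20 and 9.58 in the Torin1 samples, against 7.45, 7.05 and 7.42 in the DMSO samples. Its spread was alike in both groups, with means of 9.34 ± 0.21 with Torin1 and 7.30 ± 0.22 with DMSO (SD, n = 3 each). The change was 2.03 ± 0.15 (SE; limma adjusted p = 0.000388). JUN is the main substrate of the JNK kinases and activates its own gene.

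Jund had 7.36, 7.45 and 7.45 in the Torin1 samples, against 7.15, 7.27 and 7.11 in the DMSO samples. The groups did not overlap, yet the change was small at 0.24 ± 0.08 (SE; 95% interval 0.06 to 0.43), and it was not called (limma adjusted p = 0.0975). The other probe set for Jund gave 5.86, 5.83 and 6.16 with Torin1, against 5.80, 5.76 and 5.65 with DMSO, a change of 0.21 ± 0.11 (SE, from the fit over all probe sets). Both probe sets thus gave a small positive change. JUND is known as the more constantly expressed JUN protein.

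The related factors Atf3 and Maff were not called. Atf3 had 4.18, 4.08 and 4.04 with Torin1, against 3.64, 4.04 and 3.84 with DMSO, a log2 change of 0.26 ± 0.11 (SE; 95% interval -0.0044 to 0.53; limma adjusted p = 0.216). Its lowest Torin1 value and highest DMSO value nearly touched. Its mean over all arrays, 3.97, was below that of the median gene, 4.17, so a change of Atf3 may be understated on this scale. Maff had 4.72, 4.86 and 4.95 with Torin1, against 4.39, 4.82 and 4.32 with DMSO, and DMSO sample 2 lay among the Torin1 values. Its change was 0.33 ± 0.14 (SE; 95% interval -0.010 to 0.67; limma adjusted p = 0.223), and without DMSO sample 2 it was 0.49 and called (adjusted p = 0.0428).

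**Figure D3:**
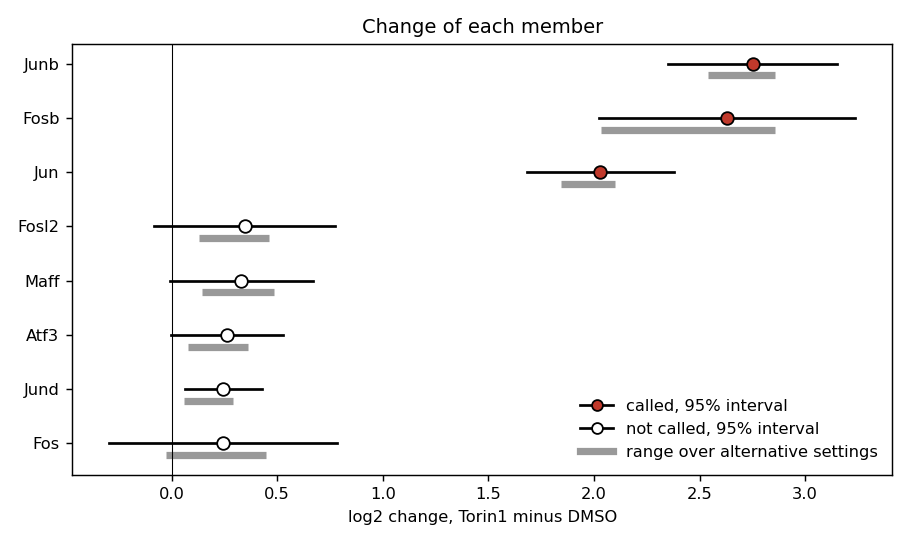
Log2 change of each member, Torin1 minus DMSO, with its 95% interval from limma (black) and the range over all alternative settings (grey); filled points are called. Junb, Fosb and Jun lie between 2.03 and 2.75, and the other 5 members between 0.24 and 0.35.

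Within each family the sizes of change were set against each other by the difference of the members' log2 values on the same array. Fos minus Fosb averaged -1.97 ± 0.07 with Torin1 and 0.42 ± 0.14 with DMSO (SD, n = 3 each), a difference in change of -2.39, so Fosb had the larger rise. Fosb minus Fosl2 differed by 2.28 between the groups. Junb minus Jund averaged 1.64 ± 0.30 with Torin1 and -0.87 ± 0.24 with DMSO, a difference in change of 2.51. Jun minus Jund differed by 1.79 and Jun minus Junb by -0.72, so Junb had the larger rise of these. Fos and Fosl2 differed in change by -0.10 (exact permutation p = 0.6). For the other 5 of 6 pairs the exact two-sided permutation p was 0.1, which is the smallest that 3 against 3 arrays allow, or 0.12 after Benjamini-Hochberg adjustment over the 6 pairs. This exact test therefore could not pass the threshold with 3 against 3 arrays, and no other test of these differences was run. The arrays of the groups did not overlap in those 5 pairs.

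The Torin1 arrays were not alike for these genes. Torin1 sample 3 was the highest of its group for 7 of 8 members, all but Atf3, whereas it was the highest for 38.8% of all genes and for 44.1% of the genes called higher. Its excess over the group mean was 0.62 for Fosb, 0.54 for Fos, 0.44 for Fosl2, 0.36 for Junb and 0.24 for Jun on the log2 scale. For Jund it was 0.034 and for Maff 0.11. Over all genes, the SD of log2 differences was 0.327 and 0.350 between Torin1 sample 3 and the other Torin1 samples, against 0.204 between these and 0.212 to 0.240 among DMSO samples. Without Torin1 sample 3, Fosb, Junb and Jun were still called, with changes of 2.32, 2.57 and 1.91.

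**Figure D4:**
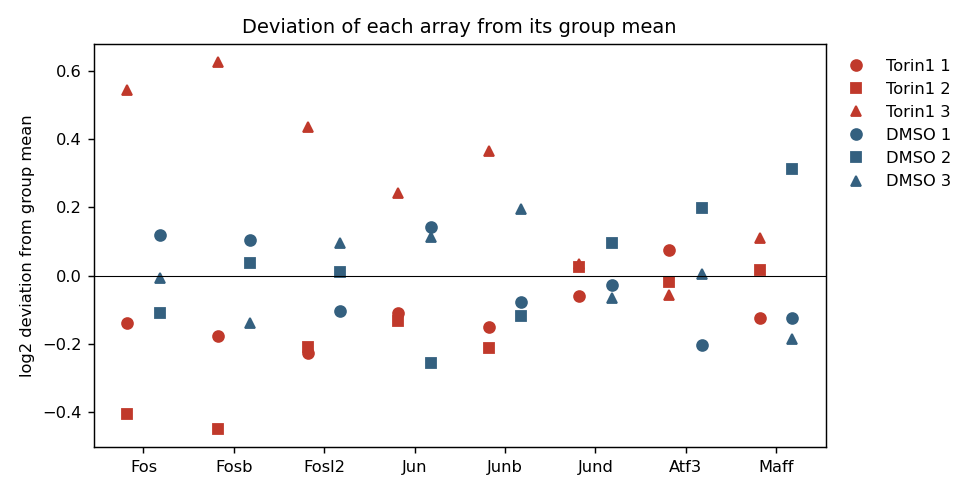
Deviation of each array from the mean of its own group, on the log2 scale, for the 8 measured members; Torin1 in red, DMSO in blue, symbols for samples 1 to 3. Torin1 sample 3 lies above the other Torin1 samples for every member but Atf3, by most at Fosb and Fos.

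The array holds RNA of oocyte and cumulus cells together. Fewer cells of a type, less RNA per cell and altered expression of the markers themselves cannot be told apart in it. All 17 oocyte markers (such as Gdf9 and Zp3) had a change above 0, with a median of 0.21, 2 called higher and 15 not called, and their summed intensity was 8489 to 9464 with Torin1 and 7672 to 8164 with DMSO. The 2 called were Figla and Dppa3; with 1 array left out there was 1 call, Figla without Torin1 3 or DMSO 2 and Kit without Torin1 1, and otherwise 0. Of 11 cumulus and granulosa markers 10 fell and 1 was not called, with summed intensities of 2640 to 2977 with Torin1 and 5126 to 5543 with DMSO. Without Torin1 1 the count of these markers called lower was 6, since Inha, Kitl, Nr5a2 and Slc38a3 lost the call. In the other leave-outs 7 to 9 were called lower. The changes were unequal across these markers. Without Torin1 3 they were -3.46 for Amhr2, -3.28 for Fshr and -0.43 for Inha, and 0.20 for Fst, which was not called. The changes of Fos, Jund and Atf3 are close to the oocyte median. Centring each array on the oocyte markers shifted the change of every gene by the same -0.19, so it could not tell the members apart. The changes were then 0.058, 0.059 and 0.076 for Fos, Jund and Atf3, and 0.16 and 0.14 for Fosl2 and Maff. Junb, Fosb and Jun had changes of 2.57, 2.45 and 1.85 and were called. Sums for 8 leukocyte markers were 90.4 to 94.8 with Torin1 and 78.6 to 86.1 with DMSO, and for 6 theca and stroma markers 68.4 to 75.9 with Torin1 and 88.4 to 93.4 with DMSO. For 5 endothelial markers they were 139 to 259 with Torin1 and 91.3 to 98.4 with DMSO. The leukocyte marker Ptprc and the theca marker Cyp17a1 were dim in both groups, below the median gene. Their means were 3.07 and 2.87 with Torin1 and 3.04 and 2.82 with DMSO. Over all arrays, 7 of the 8 leukocyte and 4 of the 6 theca and stroma markers had means below the median gene. Of the leukocyte markers Cd68 was called higher (0.54 ± 0.11, SE) and the other 7 were not called; Cd68 kept the call only without Torin1 2 or Torin1 3 (adjusted p otherwise up to 0.0681). Of the theca and stroma markers Pdgfra fell by 0.82, also when any 1 array was left out, and the other 5 were not called. The endothelial sum held Cdh5, which rose by 2.33 ± 0.37 (SE), while Pecam1, Kdr, Tek and Emcn were not called. The part of these markers in the rises of Fosb, Jun and Junb was not tested.

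The genes whose profiles lay closest to each called member were ranked by the root mean square difference between log2 values centred on each gene's own mean, over the 6 arrays. For Jun they were Bcl6, a transcriptional repressor, at 0.057, Tchhl1 at 0.125 and Ank, a pyrophosphate transporter, at 0.127. For Junb they were Boc, a Hedgehog coreceptor, at 0.058, the transcription factor Klf4 at 0.125 and Adamts1, a protease of the cumulus matrix, at 0.142. For Fosb they were Adamts1 at 0.183, the ERK phosphatase Dusp5 at 0.192 and Junb at 0.229. This measure finds genes that rose by a like amount, and Adamts1 was near both Fosb and Junb.

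Other AP-1 and related leucine zipper factors went both ways. Among 20 measured genes there were 5 rises and 2 falls, and 13 had no call, with a median change of 0.014. Over all genes 5.13% were called higher and 6.94% lower, with a median of 0.0098. The rises were Bach1 (1.07 ± 0.17, SE), a heme-sensing repressor that pairs with small MAF proteins, Atf4 (0.91 ± 0.10), the effector of the integrated stress response, Mafg (0.78 ± 0.10), a small MAF protein like MAFF, Atf5 and Jdp2. The falls were Nfe2l2 (-0.63 ± 0.13), which encodes the antioxidant regulator NRF2, and Maf. Atf5, Jdp2 and Maf, named to complete the counts after their values were seen, changed by 0.57, 0.29 and -0.52. Atf5 lost its call when any 1 of the DMSO arrays was omitted, Nfe2l2 without DMSO 1, DMSO 3 or Torin1 1, and Jdp2 and Maf in every leave-out but that of Torin1 3 (adjusted p up to 0.138).

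Of 21 measured genes whose products act on FOS and JUN (kinases, serum response factor partners and ubiquitin ligases), 3 rose, 1 fell and 17 were not called. Their median change was 0.061. The shares of all genes called were 5.13% higher and 6.94% lower. Elk4, a ternary complex factor that binds promoters such as that of Fos together with serum response factor, rose by 0.63 ± 0.13 (SE), and Map2k1, the kinase MEK1 above ERK, by 0.58 ± 0.11. Fbxw7, a ligase subunit that marks JUN for degradation, rose by 0.54 ± 0.10, and Mapk8ip1, a JNK scaffold, fell by 0.51. Of the 3 JNK genes, named after their values were seen, Mapk8 and Mapk9 had changes of 0.18 and 0.10 and were not called. Mapk10 had 4.55, 3.96 and 5.07 with Torin1, against 5.30, 5.42 and 5.48 with DMSO, and the groups did not overlap. Its change of -0.88 ± 0.25 (SE) was the largest of the list and was not called (limma adjusted p = 0.0732), although without Torin1 3 it was -1.15 and called lower (adjusted p = 0.00633). Elk4 and Map2k1 lost the call without DMSO 2, DMSO 3, Torin1 1 or Torin1 2, Fbxw7 without DMSO 2 or DMSO 3, and Mapk8ip1 without those and without Torin1 1 (adjusted p at most 0.0764 in these). With arrays centred on the oocyte markers 0 of this list were called higher and 3 lower. In that setting 662 of all 22180 genes were called higher and 2915 lower.

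Of 24 measured genes known for AP-1 sites in their control regions, 8 rose, 0 fell and 16 were not called, with a median of 0.20. At p below 0.05 before adjustment limma gave 9 higher and 0 lower, against 11.3% and 12.7% of all genes. After adjustment these shares of all genes were 5.13% and 6.94%. Ptgs2, the inducible prostaglandin synthase, had 9.57, 9.46 and 9.78 with Torin1, against 3.22, 4.04 and 5.23 with DMSO, and the DMSO values of samples 1 and 2 were below the median gene. Plaur, the urokinase receptor gene, had 8.03, 8.09 and 6.88 with Torin1, against 3.96, 3.49 and 3.30 with DMSO. Ezr, which encodes the membrane linker ezrin, had 9.13, 9.11 and 8.999 with Torin1, against 6.58, 6.44 and 6.60 with DMSO, a change of 2.54 ± 0.08 (SE; limma adjusted p = 3.9e-05). Tgfb1, a growth factor gene, had 9.57, 9.57 and 8.17 with Torin1, against 7.20, 7.12 and 7.28 with DMSO. In Plaur, Ezr and Tgfb1 Torin1 sample 3 was the lowest of its group, the opposite of its place in Fosb, Jun and Junb. In Ptgs2 it was the highest, as in those members. Tgfb1 lost its call without Torin1 1 and without each DMSO array (adjusted p up to 0.0602). The matrix protease genes Mmp3, Mmp9, Mmp10 and Mmp13, among the best known AP-1 targets, were not called and were dim, with Torin1 means of 2.88, 3.79, 2.97 and 2.86; they were named after their values were seen.

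Atf3 also belongs to the stress genes downstream of ATF4. Of 9 integrated stress response genes, Atf4 itself among them, 3 rose, 0 fell and 6 had no call, with a median of 0.74. At p below 0.05 before adjustment limma gave 7 higher and 0 lower, against 11.3% and 12.7% of all genes. After adjustment these shares of all genes were 5.13% and 6.94%. Slc7a11, the cystine transporter gene, rose by 1.15 ± 0.19 (SE), Atf4 as given above, and Ppp1r15a, which restores translation after stress, by 0.87 ± 0.21. Ppp1r15a lost its call without Torin1 2 or any 1 of the DMSO arrays (adjusted p up to 0.126). Without Torin1 3, 6 genes of the list were called higher, as were 1389 of all 22180 genes. Of 10 heat shock genes 1 fell, 0 rose and 9 had no call (limma at p below 0.05 before adjustment: 2 higher, 1 lower). The one that fell was Hspb1, a small heat shock protein gene, by 0.83.

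**Figure D5:**
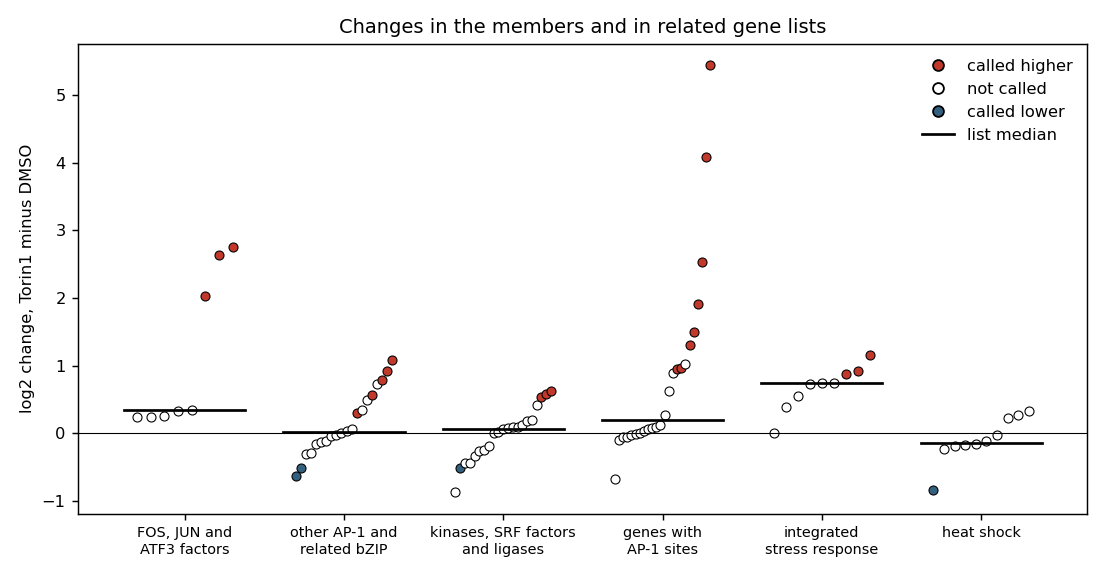
Log2 change, Torin1 minus DMSO, of each measured gene in the members and in 5 related lists; red points were called higher, blue lower, white not called, and the bar is the list median. The members split into 3 genes above 2 and 5 genes below 0.4, and the genes with AP-1 sites include the largest changes plotted, up to 5.44 for Ptgs2.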

How the data were processed

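The authors deposited 1 intensity per probe set and array, on a linear scale from 2.25 to 3268, for which the submitters' processing notes name RMA, GCOS and Affymetrix Expression Console 1.1; their settings and order, and a build, are not stated there. RMA imposes a common distribution on the arrays, so changes are relative to the other transcripts. Background per probe was not used, and precision is limited by having 3 arrays a group.

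Values were taken as log2(intensity + 1). Of 41345 probe sets, 23521 named 1 gene, 1814 several and 16010 none here; Entrez identifiers of 23328 matched the RefSeq table. The brightest probe set per gene was kept (22180 genes, 1082 with several). The contrast, Torin1 over DMSO, was fitted in limma 3.58.1 (R 4.3.3; no covariate, two-sided, Benjamini-Hochberg, call below 0.05). On simulated data with these 22180 genes, 26% of 50 genes changed by a log2 of 0.5 were recovered. For 50 genes each at 1, 2 and 3 the shares were 66%, 98% and 100%, with 7 false calls. Far fewer genes were changed there than the 2678 called in the data, which makes the Benjamini-Hochberg cut-off stricter. The shares therefore do not give the recovery in the real fit. The members and lists were chosen with earlier results of these data known. Named genes were all members, up to 4 called genes per list with the largest change, and the 3 nearest profiles of each called member. Cell type markers were named outside this rule, many for their calls. Other names are marked as chosen later. In the main fit samples were not paired by number. Deviations from the group means correlated at -0.207, -0.299 and -0.148 for same-numbered samples, and at -0.115 to 0.310 for other combinations. With 3 arrays a group the deviations sum to 0, so these correlations cannot settle a pairing. The description of Torin1 sample 3 repeats the short name of sample 2, so both were also run as 1 sample.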

Additional observations from a re-analysis of the deposited data

How the results depend on the processing

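Fosb, Jun and Junb were called higher in each of the 17 alternatives, with log2 changes of 2.03 to 2.86, 1.85 to 2.10 and 2.54 to 2.86; adding 16 in place of 1 before the log gave the lowest value of Fosb and Junb, and centring on oocyte markers that of Jun. Fos and Fosl2 were called in none, Atf3 in none of the 15 that kept it. Adding 16 called Jund (0.22, adjusted p = 0.0467), and leaving out DMSO 2 called Maff (0.49), which makes 4 members higher in either case. Fos ran from -0.029 without Torin1 3, where its sign turned, to 0.45 without Torin1 2; the cause was not tested. The count of changed genes, 2678 (1138 higher and 1540 lower), was 1565 with the sample number as a replicate block, and 1518 to 3083 when 1 array was left out (1730, 1763 and 1518 without DMSO 1, 2 and 3). The block used up residual degrees of freedom and changed no call of a member. Centring on the oocyte markers gave a median change over all genes of -0.18, against 0.0098, and the split of calls to 662 higher and 2915 lower. Signal over background was not measured here, so small changes of the dim Atf3 are uncertain.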

Other observations

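Other genes with AP-1 sites that rose, chosen after their values were seen, were Lif, Dusp1, Mt2 and Cd44. Lif, a cytokine gene of the IL6 family, stood at 5.01, 5.28 and 4.91 with Torin1, against 3.52, 3.81 and 3.39 with DMSO, on the log2 scale. Cd44, the hyaluronan receptor gene, stood at 4.36, 4.36 and 4.26 with Torin1, against 3.33, 3.51 and 3.29 with DMSO. Dusp1, a phosphatase of MAP kinases, and Mt2, a metallothionein gene, rose by 1.30 ± 0.16 and 0.97 ± 0.23 (SE; limma adjusted p = 0.00277 and 0.0397). Mt2 lost its call in each leave-out but that of Torin1 3 (adjusted p up to 0.102). For both of these Torin1 sample 3 was the highest array, and for Lif and Cd44 it was the lowest of its group.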
